A study of Mus musculus with 47 samples.

Results

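The brains of male 3xTg mice fed a valine-restricted (ValR) diet were compared directly with those of male 3xTg mice fed a leucine-restricted (LeuR) diet, by RNA sequencing. The comparison held 7 libraries: ValR libraries 7, 9, 10 and 12, and LeuR libraries 19, 20 and 21. They were chosen by their labels alone, which give the sex and the diet, and are 7 of the 37 libraries with counts and of the 47 samples in the labels. All groups were homozygous 3xTg mice, a model of Alzheimer's disease that carries a human APP transgene and a human tau transgene, both driven by the neuronal Thy1 promoter, together with a mutated presenilin gene. The diets started at 6 months of age and lasted 9 months, so that the mice were 15 months old at the end. The 4 Control and 3 isoleucine-restricted (IleR) male libraries shared the estimate of the spread between libraries but took no part in the contrast. The labels list 6 male samples in each diet group, and the other 10 male samples are not analysed here; the study's methods state that outlying samples were taken out after a principal component analysis. The study describes the sequenced samples as separate mice, and the p-values below measure the spread between these samples.

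Valine and leucine are essential branched-chain amino acids (BCAAs) that the brain takes up from the blood. Their breakdown begins in the same way, with a transaminase and then the branched-chain ketoacid dehydrogenase complex. After this the paths part: leucine is broken down to acetyl-CoA and acetoacetate, and valine is broken down to propionyl-CoA. Leucine is also the amino acid to which the growth-controlling kinase complex mTORC1 responds most strongly. The brain makes its own cholesterol, since lipoproteins of the blood do not cross the blood-brain barrier.

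The ValR libraries held 13464879, 14728822, 17161791 and 15401349 counts, and the LeuR libraries held 22315342, 12682663 and 17268169. Values are given below as CPM, the usual depth-scaled counts, with library sizes adjusted by TMM, always in the order ValR libraries 7, 9, 10 and 12 and LeuR libraries 19, 20 and 21. Each difference is a log2 fold change of ValR over LeuR with its standard error.

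The libraries differed in which brain regions their RNA represented. Purkinje cells are the output neurons of the cerebellar cortex, and granule cells are the most numerous neurons of the cerebellum. Over the Purkinje cell list of 12 genes, the mean log2 CPM was 6.93, 6.03, 7.44 and 7.59 in the ValR libraries and 4.84, 5.72 and 3.71 in the LeuR libraries. The granule cell list of 15 genes gave 7.13, 6.35, 7.70 and 7.79 in ValR and 5.01, 6.44 and 2.89 in LeuR. The ValR libraries were thus higher in Purkinje genes without overlap, whereas for granule cell genes ValR 9 lay below LeuR 20. LeuR 21 was the lowest in both lists. Hox genes of the caudal hindbrain and spinal cord summed to 189.8, 262, 31.0 and 13.1 CPM in ValR and 113, 36.7 and 0.564 CPM in LeuR, with wide spread within both diets. Cortical projection neuron genes, 20 in the list, had a mean log2 CPM of 2.87, 3.14, 3.19 and 3.12 in ValR and 2.81, 5.05 and 4.18 in LeuR.

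In Control males the cortical projection neuron list had a mean log2 CPM of 6.69, 6.97, 5.75 and 6.70. All 4 ValR libraries and LeuR 19, in samples labelled as brain, thus lay far below Control in these forebrain genes, and LeuR 20 and LeuR 21 lay between. Hypothalamic peptide genes summed to 24.8, 27.9, 19.2 and 7.77 CPM in ValR and to 62.5, 17.5 and 898 CPM in LeuR. LeuR 21 stood far above the rest for these, with 325 CPM of Pmch, 148 CPM of Oxt and 77.8 CPM of Hcrt, the precursors of melanin-concentrating hormone, oxytocin and orexin. These 3 genes were chosen after their values were seen. LeuR 19 stood apart in another way: hemoglobin and other blood genes summed to 19630.2, 6779.6 and 2525 CPM in LeuR against 4264, 5606, 3056 and 1131 CPM in ValR, and choroid plexus genes to 7499, 1641 and 288 CPM against 2806, 3704, 706 and 264 CPM. LeuR 19 was the highest of the 7 in both sums.

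A regional score was taken as the mean log2 CPM of hindbrain and midbrain genes minus that of forebrain genes (36, cortical and striatal). The hindbrain and midbrain side held 62 genes, from the cerebellar, glycine transmission and hindbrain and midbrain transcription factor lists. The score was 1.82, 1.21, 1.89 and 1.82 in the ValR libraries and 1.00, -0.24 and -2.63 in the LeuR libraries. It was -6.33, -5.09, -2.48 and -5.44 in Control and 0.45, 1.49 and 1.61 in IleR. Every ValR library lay above every LeuR library, and the group means differed by 2.31 (1.30 without LeuR 21), so that diet and regional make-up moved together in these 7 libraries. The part of the make-up in the gene differences below was not tested beyond the fits that carry the score as a covariate or leave out a library. In bulk tissue, fewer cells of a type and less RNA per cell cannot be told apart.

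**Figure D1:**
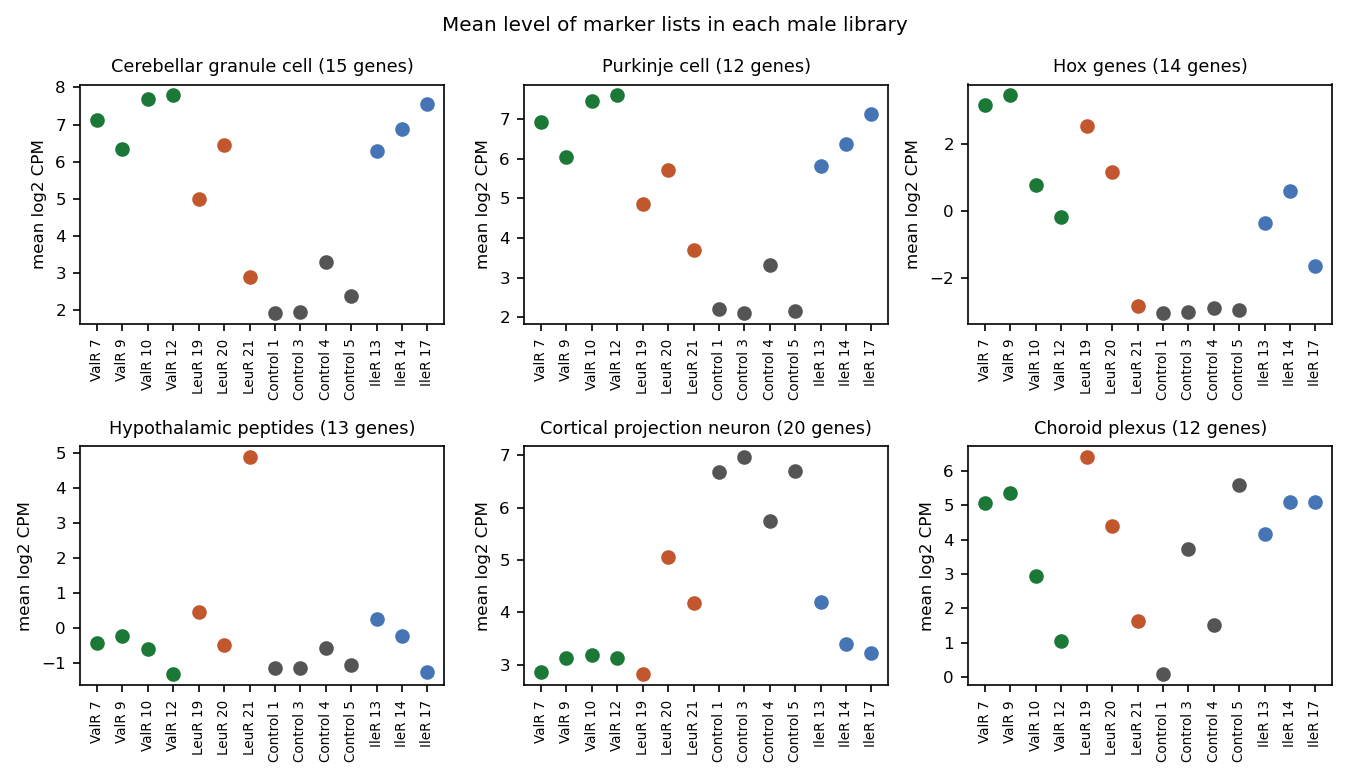
Mean log2 CPM of 6 marker lists in each of the 14 male libraries, one point per library, with ValR in green, LeuR in orange, Control in grey and IleR in blue. The ValR libraries sit above the LeuR libraries for Purkinje cell genes, LeuR 21 stands alone for hypothalamic peptides, and the Control libraries are the lowest for Purkinje cell genes and the highest for cortical genes.

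Of 22197 genes tested, 165 (0.743%) were higher and 87 (0.392%) were lower in ValR than in LeuR below an adjusted p of 0.05 (the quasi-likelihood test of edgeR, adjusted by Benjamini and Hochberg), 1.14% in both directions together. These calls sat at the edge of the threshold: 250 of the 252 shared an adjusted p of 0.0494, and another 313 genes not called had an adjusted p under 0.051. At an unadjusted p under 0.05 there were 5275 genes (23.8%). The ValR and LeuR libraries did not overlap for 164 of the 165 higher and 86 of the 87 lower genes, against 9.42% of all genes with ValR wholly above and 8.47% wholly below. No gene was called without LeuR 21 (edgeR, smallest adjusted p = 0.156), with the regional score as a covariate (0.185) or in a fit of the 7 libraries alone (0.119), whereas 1938 were called without ValR 9 and 1183 without LeuR 20. Without LeuR 19 there were 290 calls, 41 higher and 249 lower. Leaving out ValR 7, ValR 10, ValR 12, Control 1, Control 3, Control 5 or IleR 14 also left no call, while 762 genes were called without Control 4, 505 without IleR 17 and 167 without IleR 13. The rises and falls named below hold for the fit of all 14 male libraries. Called, rose and fell refer below to edgeR alone. Other tests of the same libraries called more genes. DESeq2 called 1450 higher (7.75%) and 1046 lower (5.59%) of 18710 genes given an adjusted p, and limma voom called 434 higher (1.96%) and 129 lower (0.581%). Their counts stand beside those of edgeR for each gene list, to be read against these shares. Counts at an unadjusted p under 0.05 in males are to be read against 23.8%.

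The genes that rose most included a gene of Purkinje cells and several little-studied transcripts. Rgs8, a regulator of G-protein signalling rich in Purkinje cells (ENSMUSG00000042671, chr1:153653025-153700323, plus strand; build GRCm38, GENCODE M21, as for the positions below), had 588, 328, 990.3 and 1115 CPM in the ValR libraries (7, 9, 10 and 12, in this order) and 155, 210.5 and 130.4 CPM in the LeuR libraries (19, 20 and 21). All ValR libraries were above all LeuR libraries. Its log2 fold change was 2.19 ± 0.42 (95% interval 1.28 to 3.10), 2.04 without LeuR 21 and 1.85 with the regional score as a covariate. Ltbp2, which binds latent TGF-beta in the extracellular matrix, had 48.7, 26.6, 64.9 and 68.2 CPM in ValR and 5.95, 14.3 and 1.41 CPM in LeuR. LeuR 21 was lowest and ValR 9 the lowest of its group, with no overlap (log2 fold change 2.88 ± 0.61, and 2.38 without LeuR 21 and 3.79 without LeuR 20).

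Among called genes whose mean log2 CPM reached 1, the largest rise was in Gm43549, at 5.11, 4.11, 6.13 and 6.43 CPM in ValR and 0.448, 1.15 and 0.395 CPM in LeuR, with no overlap between the groups (3.07 ± 0.68; 2.81 without LeuR 21 and 3.67 without LeuR 20). Of the 8 largest such rises, the other 5, each with groups that did not overlap, were 2610037D02Rik (2.63 ± 0.54), the muscle-associated gene Cmya5 (2.54 ± 0.49), A930017K11Rik (2.54 ± 0.55), the sodium-proton exchanger Slc9a3 (2.22 ± 0.43) and Lncppara (2.08 ± 0.41). Without LeuR 21 these differences were 2.42, 2.19, 2.10, 1.96 and 1.75 in the same order. Without LeuR 20 A930017K11Rik differed by 3.38 and Lncppara by 2.71. With the regional score as a covariate Ltbp2 differed by 1.95 and Gm43549 by 3.22, and the 5 by 2.80, 2.51, 1.68, 1.56 and 1.92. All 5 kept a positive difference without LeuR 21, and none passed the threshold without it.

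In the Purkinje cell list 2 of 12 genes rose in edgeR, where 0.743% of all genes rose, with 9 higher by DESeq2 and 6 higher by limma voom. All 12 had a positive difference, and the median was 1.98 against -0.05 over all genes tested. Rgs8, given above, was 1 of those that rose. Pcp2, a Purkinje cell protein, had 114, 56.5, 190.4 and 209.8 CPM in ValR and 15.9, 44.1 and 0.226 CPM in LeuR and was not called (2.85 ± 0.93; edgeR, adjusted p = 0.0967; 0.43 with the covariate of regional score). In the granule cell list edgeR called none of 15, with 12 at an unadjusted p under 0.05, 6 higher by DESeq2 and 3 higher by limma voom, and a median of 1.69. Its GABA receptor subunit gene Gabra6 had 231, 117, 435 and 387 CPM in ValR and 31.5, 111 and 0 CPM in LeuR, so that LeuR 20 and ValR 9 were close, and its adjusted p was 0.154 in edgeR (2.64 ± 1.05; 4.18 without LeuR 20 and -0.71 with the covariate). Rora, a nuclear receptor needed by Purkinje cells and listed here with the thalamus, rose with 214, 133, 246 and 306 CPM in ValR and 67.8, 106 and 66.4 CPM in LeuR and no overlap (1.49 ± 0.28; 1.37 without LeuR 21); it was the 1 of 14 thalamus genes that edgeR called, with 2 higher and 1 lower by DESeq2 and 2 higher by limma voom (list median -0.59, and -0.03 without LeuR 21). Without LeuR 21 the medians of the Purkinje and granule cell lists were 1.76 and 1.49, and with the regional score as a covariate, which holds these genes itself, they were 1.36 and 0.62.

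Further genes that rose, chosen after their values were seen, were Cacna1a, the pore subunit of a neuronal calcium channel, at 417, 299, 508 and 599 CPM in ValR and 156, 243 and 155 CPM in LeuR (1.31 ± 0.27), and Rictor, a subunit of mTORC2, at 127, 85.4, 134 and 160.4 CPM in ValR and 51.3, 74.3 and 52.0 CPM in LeuR (1.10 ± 0.20). Both had groups that did not overlap.

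**Figure D2:**
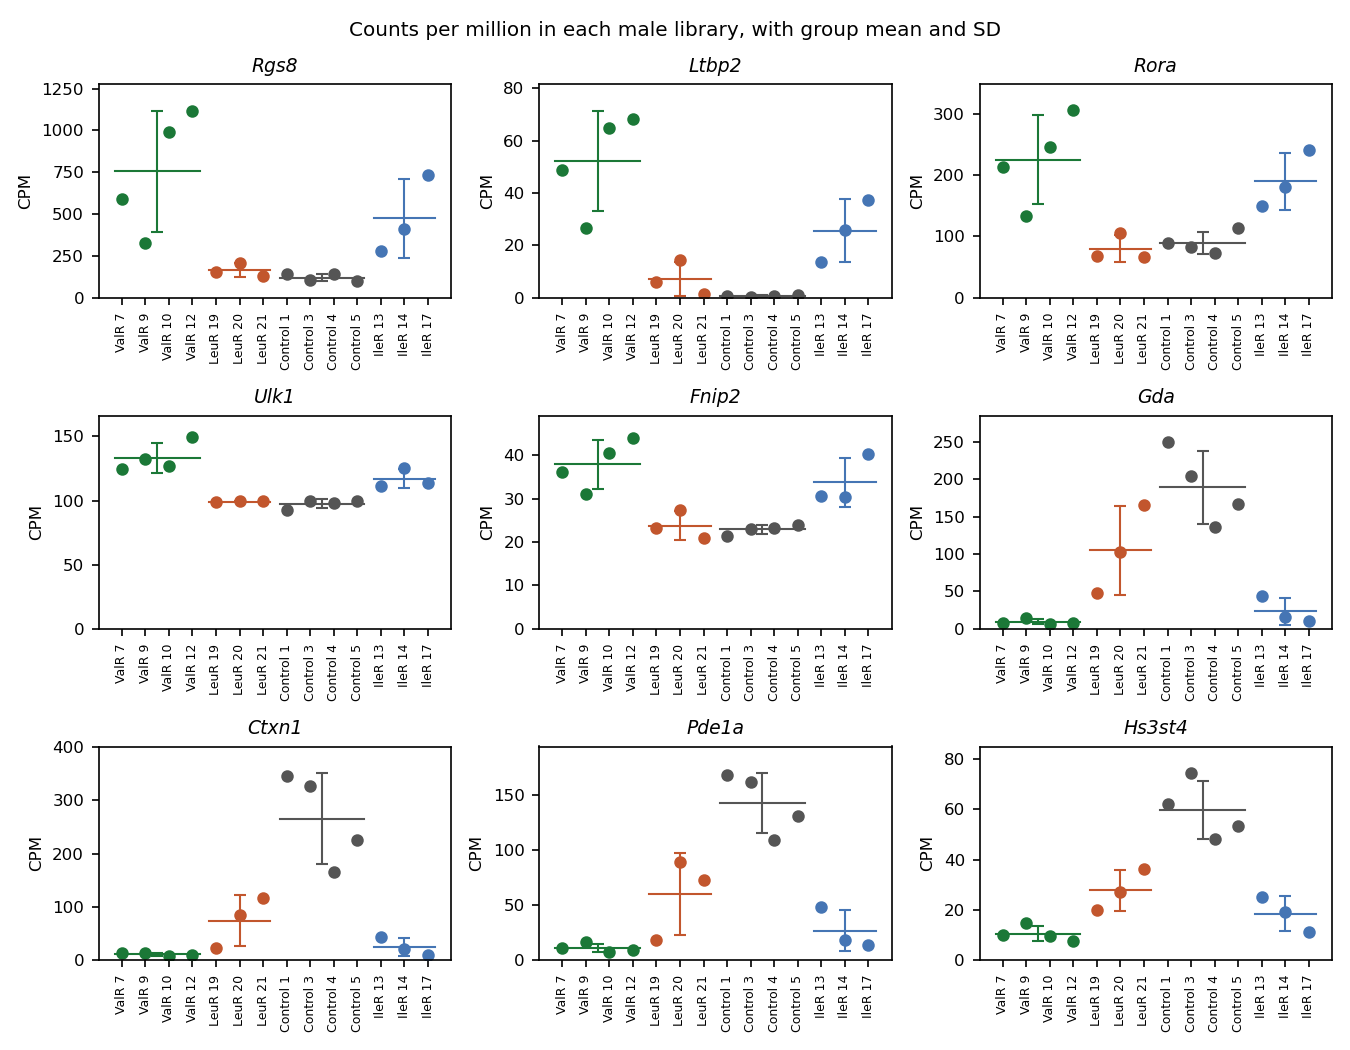
CPM of 9 called genes in each of the 14 male libraries, one point per library; horizontal lines are group means and vertical bars are the SD. For Rgs8 the 4 ValR libraries lie between 328 and 1115 CPM and the 3 LeuR libraries between 130.4 and 210.5 CPM, and for Gda the order is the opposite.

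The largest fall among called genes whose mean log2 CPM reached 1 was in Gda, guanine deaminase (ENSMUSG00000058624, chr19:21391307-21473445, minus strand), which had 8.35, 14.5, 7.08 and 8.09 CPM in the ValR libraries (7, 9, 10 and 12, in this order) and 47.5, 102 and 166 CPM in the LeuR libraries (19, 20 and 21). LeuR 21 was the highest and LeuR 19 the lowest of the LeuR group, still above every ValR library. Its log2 fold change was -3.47 ± 0.51 (95% interval -4.58 to -2.36) and -2.98 without LeuR 21. Ctxn1, cortexin, a membrane protein of cortical neurons, had 12.2, 13.3, 7.02 and 9.11 CPM in ValR and 21.5, 83.6 and 117 CPM in LeuR, with no overlap (-2.83 ± 0.56; -2.33 without LeuR 21). Pde1a, a calcium-dependent phosphodiesterase, had 10.6, 16.4, 7.37 and 9.05 CPM in ValR and 17.6, 89.1 and 72.1 CPM in LeuR; LeuR 19 was just above ValR 9 (-2.45 ± 0.53; -2.29 without LeuR 21). With the regional score as a covariate the differences were smaller, at -2.43 for Gda, -1.61 for Ctxn1 and -1.62 for Pde1a.

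Of the 8 largest falls by the same rule, the other 5 were 1700001L19Rik (-2.22 ± 0.43), the Notch pathway ligand Dlk2 (-2.21 ± 0.41), 2010204K13Rik (-2.19 ± 0.45), the synaptotagmin Syt17 (-2.19 ± 0.45) and the protocadherin Pcdh8 (-2.13 ± 0.46). Without LeuR 21 they were smaller, at -1.45, -1.58, -1.22, -1.80 and -1.25, and with the covariate -1.57, -1.37, -1.31, -1.47 and -1.39. Hs3st4, a heparan sulfate sulfotransferase, was the 1 gene of the 12 in the hippocampus list that edgeR called, with 2 higher and 6 lower by DESeq2 and 1 lower by limma voom, at 9.93, 14.8, 9.67 and 7.65 CPM in ValR and 19.9, 27.2 and 36.1 CPM in LeuR with no overlap (-1.40 ± 0.29; -1.17 without LeuR 21 and -0.91 with the covariate). Over all genes DESeq2 called 7.75% higher and 5.59% lower, limma voom called 1.96% and 0.581%, and 23.8% had an unadjusted p under 0.05. In the cortical projection neuron list edgeR called none of 20 (median -0.87), with 13 at an unadjusted p under 0.05, 2 higher and 10 lower by DESeq2 and 1 higher by limma voom. Of 17 striatal genes it called none, with 5 at an unadjusted p under 0.05, 3 lower by DESeq2 and none by limma voom, and the median of -0.94 was -0.35 without LeuR 21. Of 18 immediate early genes it called none, with 3 at an unadjusted p under 0.05, 2 lower by DESeq2 and none by limma voom, and the median of -0.48 was -0.06 without LeuR 20. Of 13 tested hypothalamic peptide genes it called none, with 10 at an unadjusted p under 0.05, 2 lower by DESeq2 and none by limma voom, and the median of -3.32 was -0.85 without LeuR 21 and -0.59 with the covariate. The cortical median was -0.48 with the covariate.

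Of the genes reported here that the study's text on the brain names, edgeR called none between ValR and LeuR, whereas DESeq2 called Crym, given below. Hox genes pattern the hindbrain and spinal cord. Hoxb3 had 23.7, 30.4, 6.25 and 1.21 CPM in ValR and 17.4, 6.38 and 0 CPM in LeuR, and its 0 in LeuR 21 allows up to 0.174 CPM (3 counts). ValR 7 and ValR 9 were high and ValR 10 and ValR 12 were below LeuR 19, so the groups overlapped (0.94 ± 1.13; edgeR, adjusted p = 0.655). Hoxa5 had 30.3, 43.3, 0.885 and 1.40 CPM in ValR and 9.13, 2.84 and 0 CPM in LeuR (2.22 ± 1.54; edgeR, adjusted p = 0.42), and Hoxc4 had 19.4, 22.2, 2.95 and 1.21 CPM in ValR and 12.6, 3.00 and 0 CPM in LeuR (1.12 ± 1.30; edgeR, adjusted p = 0.647). In all 3 genes ValR 7 and ValR 9 were the highest and the diets overlapped. Without LeuR 19 the 3 differences were 2.30, 3.81 and 2.99, without LeuR 21 0.35, 1.64 and 0.53, and with the regional score as a covariate -0.41, 0.91 and -0.35. Lhx1, a transcription factor of Purkinje and hindbrain neurons, had 46.9, 27.0, 54.6 and 57.2 CPM in ValR and 13.3, 25.7 and 9.82 CPM in LeuR with no overlap (1.52 ± 0.89; edgeR, adjusted p = 0.323; -0.61 with the covariate). In the Hox list 14 of 39 genes were tested and edgeR called none (median 0.90), with 0 at an unadjusted p under 0.05, none by DESeq2 or limma voom. Of 32 hindbrain and midbrain transcription factors it called none (median 0.38), with 2 at an unadjusted p under 0.05, 1 higher by DESeq2 and 1 higher by limma voom. The Hox median was 0.44 without LeuR 21, 2.58 without LeuR 19 and -0.35 with the regional score as a covariate. That of the hindbrain and midbrain factors was 0.07, 0.82 and -1.10 in the same order.

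Crym, a striatal and cortical thyroid hormone-binding protein, had 0.360, 0.404, 0.413 and 0.127 CPM in ValR and 0.940, 36.8 and 15.0 CPM in LeuR, without overlap (-5.71 ± 1.36; edgeR, adjusted p = 0.0502; -4.55 without LeuR 20). DESeq2 gave it an adjusted p of 0.000257, limma voom 0.212, and edgeR with the filter of 1 CPM in 3 libraries 0.0427. It is a forebrain gene named in the same text.

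Of 24 genes of cholesterol synthesis and its control, 3 fell and 0 rose in edgeR, where 0.392% of all genes fell, with 10 lower by DESeq2 and 8 lower by limma voom. The list, chosen after values were seen, held 23 genes with a negative difference, with a median of -0.43 against -0.05 over all genes (without LeuR 21, -0.40; with the regional score as a covariate, -0.40). Over the list, the mean log2 CPM was 5.47, 5.58, 5.55 and 5.28 in ValR and 5.98, 5.73 and 5.78 in LeuR, and the groups did not overlap. Oligodendrocyte genes, markers of the cells that make myelin from cholesterol, had a mean log2 CPM of 7.47, 7.88, 7.56 and 7.29 in ValR and 8.12, 7.84 and 6.77 in LeuR; these overlapped, LeuR 19 was the highest and LeuR 21 the lowest, and their part in the result was not tested.

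Sqle, squalene epoxidase, which oxidises squalene to its epoxide (ENSMUSG00000022351, chr15:59315077-59331192, plus strand), had 47.6, 53.5, 46.2 and 36.4 CPM in the ValR libraries (7, 9, 10 and 12, in this order) and 89.5, 71.1 and 81.4 CPM in the LeuR libraries (19, 20 and 21). Every ValR library was below every LeuR library. Its log2 fold change was -0.81 ± 0.15 (95% interval -1.13 to -0.50), -0.81 without LeuR 21 and -0.85 with the regional score as a covariate. Hmgcs1, the HMG-CoA synthase that supplies the sterol pathway (ENSMUSG00000093930, chr13:119690379-119708260, plus strand), had 167, 206, 179.8 and 139 CPM in ValR and 287, 254 and 262 CPM in LeuR, without overlap (-0.63 ± 0.14; -0.65 without LeuR 21). Fdps, farnesyl diphosphate synthase (ENSMUSG00000059743, chr3:89093588-89101959, minus strand), had 39.3, 42.7, 39.0 and 28.8 CPM in ValR and 61.4, 56.2 and 54.4 CPM in LeuR, also without overlap (-0.61 ± 0.13; -0.66 without LeuR 21). None of these kept an adjusted p under 0.05 without LeuR 21 or with the covariate, where Hmgcs1 differed by -0.57 and Fdps by -0.61.

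Members of the list just outside the threshold had differences of the same sign. Mvk, mevalonate kinase, had 17.0, 17.2, 17.1 and 16.8 CPM in ValR and 25.2, 20.4 and 23.7 CPM in LeuR and no overlap (-0.44 ± 0.10; edgeR, adjusted p = 0.0502). Srebf2, the transcription factor that switches on sterol synthesis, had 185, 191, 179 and 158 CPM in ValR and 233, 219.9 and 283 CPM in LeuR (-0.46 ± 0.11; edgeR, adjusted p = 0.0502; -0.25 with the covariate). Fdft1, squalene synthase, differed by -0.63 ± 0.15 (edgeR, adjusted p = 0.0502). A smaller difference was fitted for Insig1, which holds the sterol sensor in the endoplasmic reticulum (-0.24 ± 0.13; edgeR, adjusted p = 0.268; -0.09 without LeuR 19, -0.32 without LeuR 21 and -0.40 with the covariate).

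The efflux side moved the other way in 1 gene. Abca1, the pump that hands cholesterol to apolipoproteins (ENSMUSG00000015243, chr4:53030787-53159895, minus strand), rose, with 95.8, 77.3, 80.1 and 107 CPM in ValR and 50.4, 51.9 and 34.9 CPM in LeuR and no overlap (0.98 ± 0.15; 0.81 without LeuR 21). It was the 1 of 9 efflux and oxysterol genes that edgeR called, with 2 higher and 1 lower by DESeq2 and 1 higher by limma voom (list median 0.15, and 0.35 without LeuR 19). Over all genes edgeR called 0.743% higher, DESeq2 called 7.75% higher and 5.59% lower, and limma voom called 1.96% higher. Abcg1, a related pump, had 115, 112, 125 and 137 CPM in ValR and 88.6, 99.1 and 92.7 CPM in LeuR (0.39 ± 0.11; edgeR, adjusted p = 0.0704). Cyp46a1, the neuronal enzyme that turns cholesterol over to an oxysterol that leaves the brain, had 46.2, 56.0, 37.7 and 46.1 CPM in ValR and 49.5, 77.1 and 139 CPM in LeuR (-0.93 ± 0.27; edgeR, adjusted p = 0.0721). LeuR 21 was the highest, and without it the difference was -0.45 (edgeR, adjusted p = 0.282), and -0.17 with the regional score as a covariate.

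Read against the other male diets, Hmgcs1 stood at 287, 262, 256 and 257 CPM in Control and 208, 201 and 149 CPM in IleR, and Sqle at 60.0, 57.3, 68.4 and 56.7 CPM in Control and 58.6, 52.0 and 39.3 CPM in IleR. For Hmgcs1 the Control libraries overlapped the LeuR range, and for Sqle they lay below all LeuR libraries. Abca1 stood at 42.8, 45.6, 44.6 and 55.1 CPM in Control.

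Promoters of 2 of these genes are shown because sterol genes are read out through SREBP, the product of Srebf2, at sterol elements near their start sites. They are RefSeq sequence of build GRCm38.p6, plus strand, the 250 bases before the start, with matches in capitals: TCACNCCAC, a sterol element form, and CCAAT, each searched on both strands. Hmgcs1, chr13:119690101-119690350, held TCACCCCAC at 137 to 129 bases before the start and CCAAT on the reverse strand (ATTGG as printed) beginning 237, 176 and 45 bases before it. Srebf2, chr15:82147019-82147268, held CCAAT on the reverse strand at 135.
Hmgcs1: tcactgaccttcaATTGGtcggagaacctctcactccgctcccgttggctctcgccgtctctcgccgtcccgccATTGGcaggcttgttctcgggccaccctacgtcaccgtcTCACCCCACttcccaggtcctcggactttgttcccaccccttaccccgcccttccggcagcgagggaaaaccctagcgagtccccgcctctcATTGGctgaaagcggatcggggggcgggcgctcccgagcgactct
Srebf2: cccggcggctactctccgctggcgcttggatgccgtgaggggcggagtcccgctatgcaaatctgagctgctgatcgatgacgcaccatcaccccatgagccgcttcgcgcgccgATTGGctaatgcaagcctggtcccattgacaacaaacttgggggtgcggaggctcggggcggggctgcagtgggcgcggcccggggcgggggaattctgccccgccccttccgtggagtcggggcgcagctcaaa
Of 32851 promoters in the table, 346 (1.05%) held TCACNCCAC and 11120 (33.8%) held CCAAT. The table held 18 of the 24 list genes, of which 1 (Hmgcs1) held TCACNCCAC and 17 held CCAAT. A match describes these letters and is not evidence that a factor binds there.

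**Figure D3:**
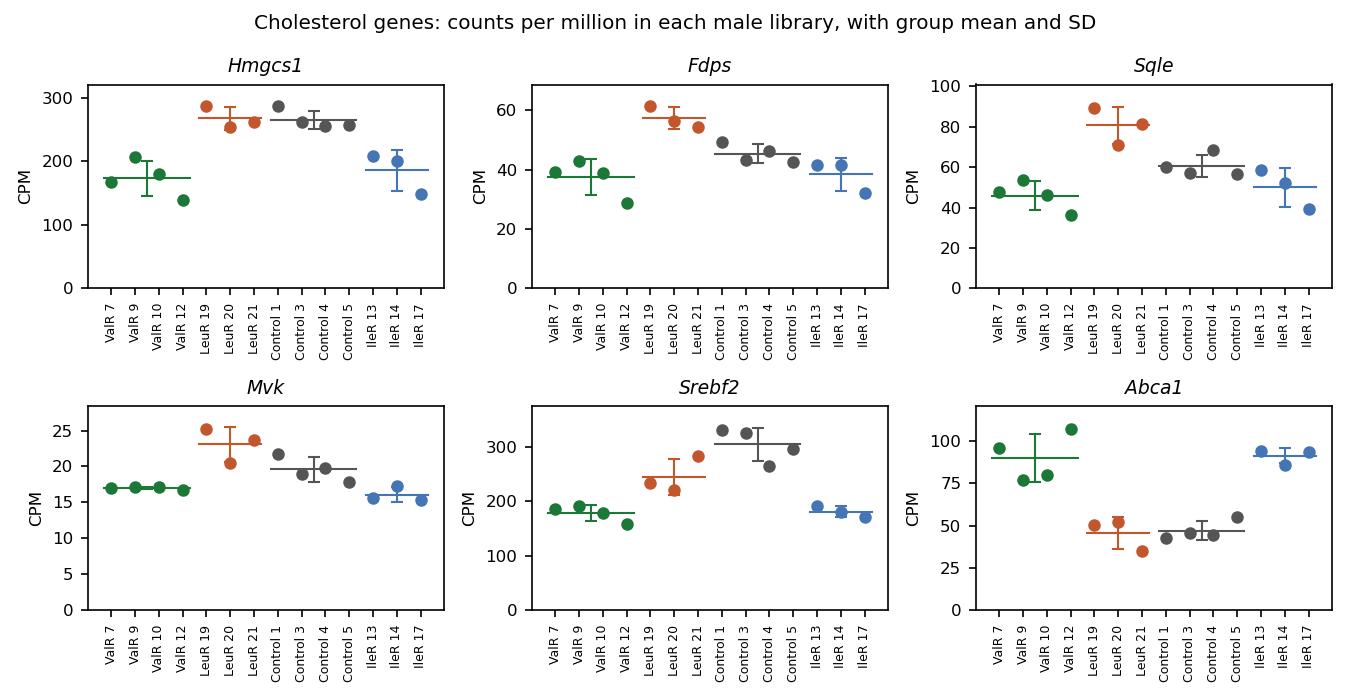
CPM of Hmgcs1, Fdps, Sqle, Mvk, Srebf2 and Abca1 in each of the 14 male libraries, one point per library; horizontal lines are group means and vertical bars are the SD. For Sqle the ValR libraries lie between 36.4 and 53.5 CPM and the LeuR libraries between 71.1 and 89.5 CPM, and Abca1 has the opposite order.

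Genes that break down the restricted amino acids gave no call in edgeR. It called none of 8 genes of the transaminase and dehydrogenase list, 7 of leucine breakdown, 5 of valine breakdown, 4 of isoleucine breakdown or 14 of propanoate metabolism, with medians of 0.05, 0.09, 0.04, -0.09 and -0.06. At an unadjusted p under 0.05 there were 0, 1, 0, 0 and 3 genes. DESeq2 called 1 leucine gene higher and 1 propanoate gene lower, and limma voom called none.

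For the shared first steps the intervals were narrow. The cytosolic transaminase Bcat1 differed by -0.14 (95% interval -0.62 to 0.34) and the mitochondrial Bcat2 by 0.07 (-0.23 to 0.38). Of the dehydrogenase subunits, Bckdha differed by 0.08 (-0.11 to 0.26), Bckdhb by -0.06 (-0.37 to 0.24) and Dbt by -0.15 (-0.35 to 0.05). The kinase that inactivates the complex, Bckdk, differed by 0.15 (-0.01 to 0.32) and the phosphatase that activates it, Ppm1k, by 0.15 (-0.04 to 0.34). A 2-fold difference lay outside each of these intervals. With the regional score as a covariate Bcat1 differed by -0.48 and Bckdhb by -0.35.

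In the leucine path, Mccc1, a subunit of methylcrotonyl-CoA carboxylase, had 48.0, 43.3, 47.9 and 57.0 CPM in ValR and 38.2, 38.9 and 36.3 CPM in LeuR. The groups did not overlap, but the test of edgeR was not passed (0.38 ± 0.11; adjusted p = 0.0633, and 0.012 in DESeq2). The thiolase Acat1, which acts at the end of the path, differed by -0.15 ± 0.08. In the valine path, Acad8, isobutyryl-CoA dehydrogenase, differed by 0.27 (-0.05 to 0.60), with 0.42 without LeuR 19 and 0.14 without LeuR 21, and the hydrolase Hibch by -0.19 (-0.43 to 0.04), with -0.35 under the covariate. Mmab, which makes the cobalamin cofactor needed downstream of propionyl-CoA, differed by -0.64 ± 0.18 (adjusted p = 0.0626 in edgeR and 0.0166 in DESeq2). Without LeuR 21 it was -0.38 (edgeR, adjusted p = 0.229), and -0.43 with the covariate.

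In the BCAA transporter list edgeR called none of 12 (median -0.03), with 2 at an unadjusted p under 0.05, 1 higher by DESeq2 and none by limma voom. Slc43a2, a facilitative transporter of large neutral amino acids, had 140.3, 141, 165 and 156 CPM in ValR and 119, 116 and 85.3 CPM in LeuR; LeuR 21 was the lowest and the groups did not overlap (0.50 ± 0.14; adjusted p = 0.0616 in edgeR and 0.0117 in DESeq2; 0.31 with the covariate). Slc7a5, the light chain of the main BCAA carrier at the blood-brain barrier, differed by 0.35 ± 0.14 (edgeR, adjusted p = 0.153) and Slc38a2, a transporter induced by amino acid shortage in many cells, by 0.40 ± 0.19 (edgeR, adjusted p = 0.23). Without LeuR 21 Slc38a2 differed by 0.11, and by 0.10 with the covariate.

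Of 39 genes of BCAA sensing and mTORC1, 1 rose in edgeR, with 5 higher by DESeq2 and 1 higher by limma voom (median 0.05). Over all genes these tests called 0.743%, 7.75% and 1.96% higher, in the same order. The gene that rose was Fnip2, a partner of folliculin, at 36.1, 31.0, 40.6 and 44.0 CPM in ValR and 23.1, 27.4 and 20.9 CPM in LeuR without overlap (0.67 ± 0.14; 0.58 without LeuR 21). Of 28 autophagy genes 1 rose in edgeR, with 3 higher and 2 lower by DESeq2 and 1 higher by limma voom (median -0.03). Over all genes DESeq2 called 7.75% higher and 5.59% lower, and limma voom called 1.96% higher. The gene that rose was Ulk1, the kinase that starts autophagy and a target of mTORC1. It had 124, 132, 127 and 149.7 CPM in ValR and 98.6, 99.3 and 99.6 CPM in LeuR. The LeuR libraries were close to each other and below all ValR libraries (0.43 ± 0.08, 95% interval 0.25 to 0.60; 0.42 without LeuR 21). Sesn1, of the sestrin family, differed by 0.64 ± 0.18 (edgeR, adjusted p = 0.0640), Rps6kb1, the S6 kinase, by 0.34 ± 0.11 (0.0855) and Rb1cc1, a partner of Ulk1, by 0.30 ± 0.09 (0.0746).

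The integrated stress response, which shuts down most translation when amino acids run short, had 0 of 23 genes called in edgeR (median 0.11), with 5 at an unadjusted p under 0.05, 1 higher and 1 lower by DESeq2 and none by limma voom. The median was 0.26 without LeuR 19 and 0.07 without LeuR 21. Atf4, its central transcription factor, differed by 0.11 ± 0.14 (95% interval -0.19 to 0.42; 0.22 without LeuR 19 and -0.03 without LeuR 21), Atf5 by 0.42 ± 0.15 (edgeR, adjusted p = 0.113), the serine pathway enzyme Shmt2 by 0.48 ± 0.13 (0.0630) and the cystine carrier Slc7a11 by -0.51 ± 0.16 (0.0849). In DESeq2 the adjusted p was 0.0142 for Shmt2 and 0.0393 for Slc7a11. In the DNA replication list edgeR called none of 28 genes, with 10 at an unadjusted p under 0.05, 5 higher by DESeq2 and none by limma voom. Of the 28, 22 had a positive difference and the median was 0.16; the helicase subunit Mcm2 differed by 0.48 ± 0.23, Mcm5 by 1.07 ± 0.29, the flap nuclease Fen1 by 0.43 ± 0.11 and the polymerase subunit Pold1 by 0.56 ± 0.15, with adjusted p values of 0.217, 0.0600, 0.0579 and 0.0607 in edgeR. In DESeq2 the adjusted p was 0.00695 for Mcm5, 0.00607 for Fen1 and 0.00778 for Pold1. Mcm2 differed by 0.25 without LeuR 21, 0.70 without LeuR 20 and 0.15 with the covariate. Of 35 carbon metabolism genes edgeR called none (median -0.07), with 5 at an unadjusted p under 0.05, 1 higher and 1 lower by DESeq2 and none by limma voom. Over all genes 23.8% had an unadjusted p under 0.05, and DESeq2 called 7.75% higher and 5.59% lower. Of 13 genes of the mitochondrial genome it called none (median -0.19), with 1 at an unadjusted p under 0.05, 1 lower by DESeq2 and none by limma voom.

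**Figure D4:**
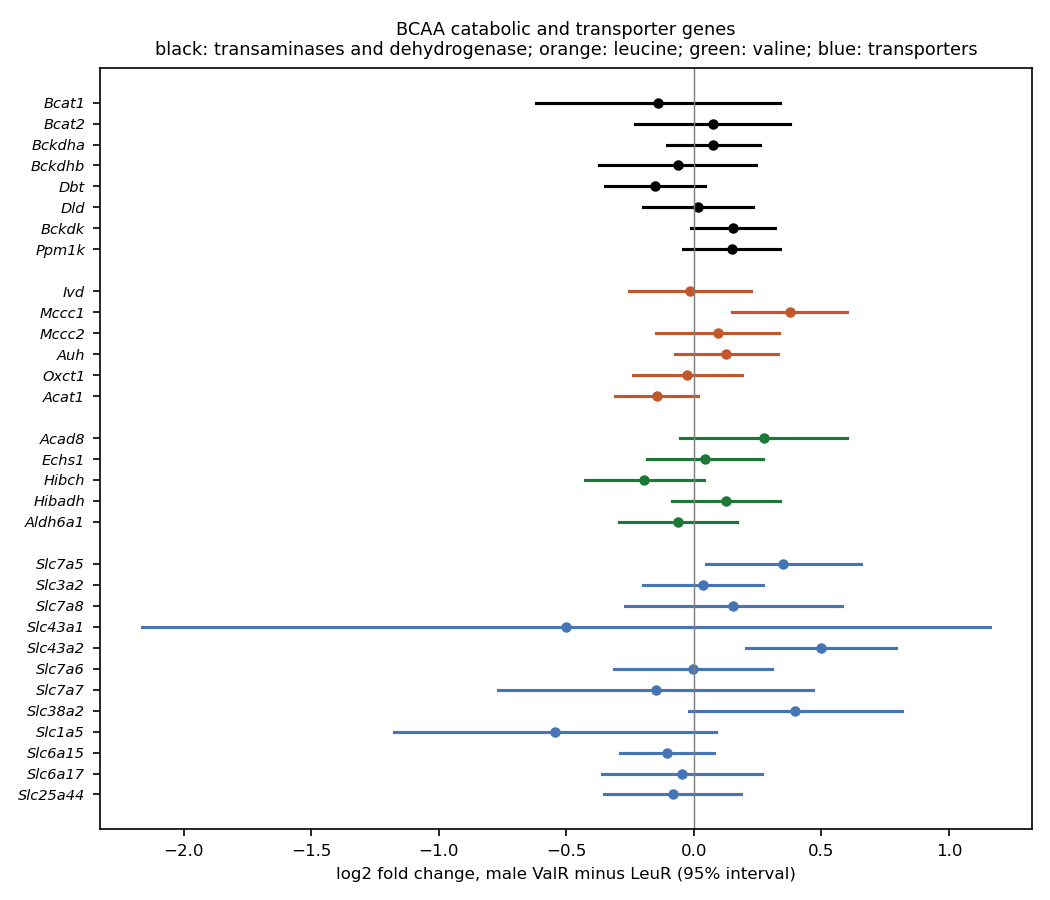
Fitted log2 fold changes (x axis, ValR minus LeuR, males) of genes of BCAA breakdown and transport, with points for the estimate and lines for the 95% interval. The intervals of all 8 genes of the transaminase and dehydrogenase list include 0, and those of Mccc1, Slc7a5 and Slc43a2 do not, although none passed the threshold of edgeR over all genes.

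Glial and disease genes gave no call in edgeR. It called none of 16 oligodendrocyte, 14 astrocyte, 12 homeostatic microglia, 18 disease-associated microglia, 19 inflammation or 18 amyloid and tau genes, with 0, 3, 4, 0, 2 and 2 at an unadjusted p under 0.05. Over all genes 23.8% had such a p. DESeq2 called 1 astrocyte gene higher, 1 lower and 1 amyloid and tau gene higher, and limma voom called 1 astrocyte gene higher. The list medians were -0.12, 0.07, -0.47, -0.10, -0.20 and -0.06. All 12 homeostatic microglia genes had a negative difference; P2ry12, a purine receptor of these cells, differed by -0.70 ± 0.35 (edgeR, adjusted p = 0.249), by -0.14 without LeuR 21 and by 0.19 with the regional score as a covariate. Gfap, of astrocyte filaments, differed by 0.03 ± 0.44 (95% interval -0.93 to 0.99; 0.40 without LeuR 19 and -0.35 without LeuR 21), Trem2, a microglial lipid receptor, by -0.05 ± 0.25 (-0.58 to 0.48; 0.21 and -0.26 in the same order) and App, the mouse amyloid precursor gene, by -0.15 ± 0.09 (-0.35 to 0.05). In the astrocyte list, Mfge8 differed by -1.05 ± 0.30 (adjusted p = 0.0663 in edgeR and 0.0106 in DESeq2) and the bicarbonate carrier Slc4a4 by 0.75 ± 0.18 (0.0502 in edgeR, 0.00332 in DESeq2 and 0.0469 in limma voom). Without LeuR 21 Mfge8 differed by -0.63 (edgeR, adjusted p = 0.251). With the covariate Mfge8 differed by -0.42 (edgeR, adjusted p = 0.482) and Slc4a4 by 0.39. Whether reads of the human transgene were counted in App is not given in the sources used here.

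None of the other lists held a gene that edgeR called, and they held 0 to 12 genes at an unadjusted p under 0.05. These were 12 of 15 GABA-A receptor subunits, 9 of 18 forebrain postsynaptic genes, 7 of 13 interneuron genes and 0 to 4 genes in each of the rest. Over all genes the share was 23.8%. DESeq2 called in these lists 1 lower of glycine transmission, 1 lower of noradrenaline and dopamine neurons, 1 lower of acetylcholine neurons, 1 lower of olfactory bulb, 1 higher and 5 lower of forebrain postsynaptic genes, 2 higher and 3 lower of GABA-A receptor subunits and 1 higher and 2 lower of interneurons. The calls of limma voom were 1 lower of acetylcholine neurons and 1 higher of interneurons. Their medians were -0.00190 for glycine transmission (8 genes), -1.31 for serotonin neurons (9 genes), -1.49 for noradrenaline and dopamine neurons (11 genes), -0.87 for acetylcholine neurons (6 genes), 0.02 for pituitary and pineal (3 genes), 0.17 for olfactory bulb (9 genes), -0.33 for forebrain postsynaptic genes (18 genes). They were -0.13 for MAPK feedback (14 genes), -0.64 for GABA-A receptor subunits (15), -0.58 for interneurons (13), -0.86 for choroid plexus (12), -1.47 for blood (5), -0.01 for endothelium (10) and -0.61 for meninges (10). Without LeuR 21 those of GABA-A receptor subunits, interneurons and forebrain postsynaptic genes were -0.14, -0.29 and -0.19, and those of pituitary and pineal, choroid plexus, oligodendrocyte, disease-associated microglia and inflammation genes were 0.71, -1.38, -0.43, -0.42 and -0.50. Without LeuR 20 those of interneurons and meninges were -0.25 and -0.37. Without LeuR 19 the choroid plexus median turned to 0.75, and those of blood and serotonin neurons were -0.41 and -0.30; those of GABA-A receptor subunits, interneurons, forebrain postsynaptic genes and astrocytes were -0.97, -0.89, -0.52 and 0.30. Also without LeuR 19, the medians of oligodendrocyte, disease-associated microglia and inflammation genes turned to 0.19, 0.20 and 0.20. With the regional score as a covariate, those of striatal, forebrain postsynaptic and MAPK feedback genes turned to 0.31, 0.33 and 0.24, and those of glycine transmission, serotonin neurons and meninges were -0.58, -2.74 and -1.23. In LeuR 19 the serotonin synthesis gene Tph2 stood at 58.8 CPM against 4.23 and 0.282 CPM in the other LeuR libraries and 2.09, 1.75, 11.6 and 0.255 CPM in ValR.

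The same diets were compared in the 12 female ValR and LeuR libraries, 6 of each. Of 20344 genes tested, 0 (0%) were called (edgeR, smallest adjusted p = 0.776), and 1011 (4.97%) had an unadjusted p under 0.05; DESeq2 called 2 and limma voom 0. Of the 252 genes called in males, 249 were tested in females, and 22 (8.84%) had a difference of the same sign, against 37.8% of all 20076 genes tested in both sexes. Cholesterol genes had a median of 0.26 in females, and 14 of the 24 had an unadjusted p under 0.05 in edgeR, though none was called. The lowest, median and highest female values of Sqle were 57.4, 68.0 and 84.5 CPM in ValR and 33.2, 51.8 and 61.2 CPM in LeuR. For Hmgcs1 they were 198, 252 and 363 CPM in ValR and 129.5, 202 and 261 CPM in LeuR. The female ValR medians were the higher in both genes, the opposite of the males. Regional make-up also differed among these females: the regional score ran from -4.63 to 0.97 in ValR and from -4.80 to 3.04 in LeuR. Female LeuR 45 and LeuR 48 had the highest scores, 3.04 and 1.08, and held the lowest Sqle, at 33.2 and 39.4 CPM, and the lowest Hmgcs1, at 129.5 and 150.2 CPM. The other 4 female LeuR libraries had 50.7 to 61.2 CPM of Sqle and 190.1 to 261 CPM of Hmgcs1, which overlapped the ValR ranges. The part of the make-up in the female differences of these genes was not tested.

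The difference between the sexes was tested itself, as the male minus the female difference. Of 20076 genes tested in both sexes, 193 (0.961%) were called, 94 positive and 99 negative, with a smallest adjusted p of 0.0314 in edgeR; 4574 (22.8%) had an unadjusted p under 0.05. Sqle differed by -1.33, Fdps by -0.997, Hmgcs1 by -1.08 and Mvk by -0.64, all called. These cholesterol genes were chosen after the male values were seen, and the male difference is a part of this test. Their calls here are therefore partly set by that choice. Without male LeuR 21 no gene was called in this test (edgeR, smallest adjusted p = 0.0806), nor without male ValR 10 or 12, female ValR 32 or 34, or female LeuR 45 or 48.

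**Figure D5:**
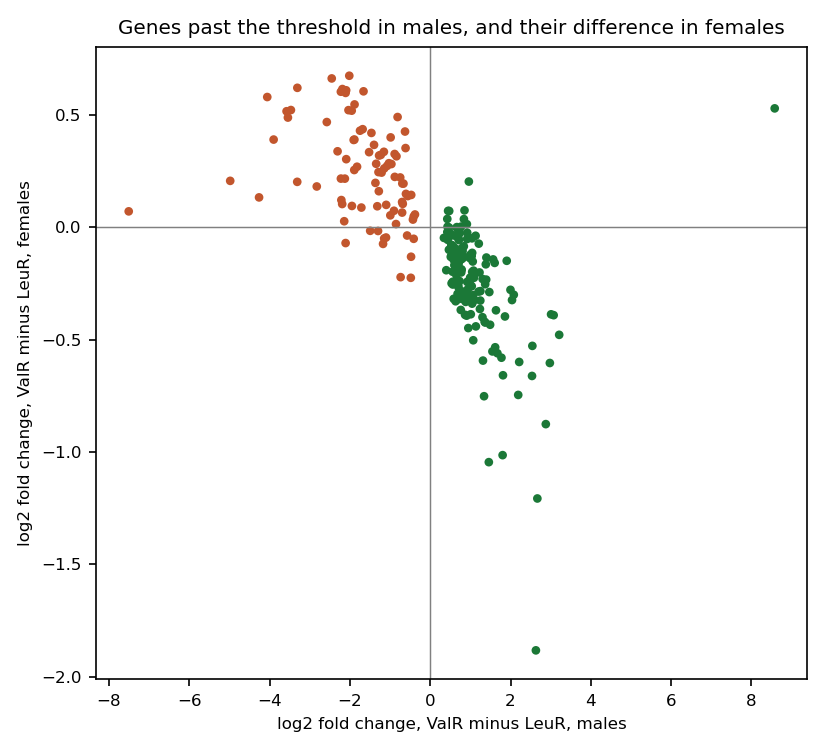
Log2 fold change of ValR over LeuR in males (x axis) and in females (y axis), one point for each of the 249 genes called in males and tested in females, with genes higher in male ValR in green and lower ones in orange. The male values chose the genes, and 22 of the 249 have the same sign in females.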

How the data were processed

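RNA of 3xTg mouse brain was measured by sequencing. The authors aligned reads to GRCm38 and deposited expected counts per Ensembl gene for each library, with no normalization; the aligner's name and version are not given in the sources used here. The labels describe both a polyA kit and a total RNA kit, so RNA selection is uncertain, and 1 protocol text names liver where the tissue field says brain. By the methods, RNA came from the left hemisphere. The submitters' processing notes name R 3.4.3, edgeR and limma. The authors' tables of their own comparisons were not used.

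Expected counts were rounded to whole numbers. Genes that had 1 count or more throughout 1 or more male diet groups were tested with edgeR 4.0.16 (quasi-likelihood, robust, TMM, R 4.3.3) in 1 fit of the 14 male libraries, contrast ValR minus LeuR, with Benjamini-Hochberg adjustment over all genes and a threshold of 0.05. Females were fitted alone, and the difference between sexes in 1 fit of both. Log2 CPM used a prior count of 2. Alternatives were limma 3.58.1 voom, DESeq2 1.42.0, other scalings, filters and sets of libraries. Marker lists (42, and 2 for cholesterol added after values were seen) were described by counts and medians. Members and lists were chosen with earlier results of these data known. Named genes were the 8 largest called differences each way whose mean log2 CPM reached 1 and whose groups did not overlap, the genes the study's text names, the BCAA breakdown lists, and the first and the 3 smallest-p genes of other lists; Cacna1a, Rictor, Pmch, Oxt, Hcrt and the cholesterol genes were added after values were seen. Some genes that this rule names are not reported here. Gene positions come from GENCODE M21. Total counts were 12682663 to 22315342 in the 7 libraries, and limits at 0 cover counting error only. On simulated data with 22197 genes, the test recovered 43 of 100 genes changed 2-fold and 99 of 100 changed 4-fold. Every simulated gene had the same dispersion (0.06557), no library differed in regional make-up, and genes of low counts were not among those changed. The real libraries differ in all of these, so the recovered shares do not give the power of the real comparison.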

Additional observations from a re-analysis of the deposited data

Results flagged for a closer look

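In 6 of 76 groups of 4 ValR values examined, 1 library was flagged as lying far from the other 3. Chance gives about 1 in 20 for independent groups, and these groups come from the same 4 libraries. ValR 9 was the outlying library for 2610037D02Rik (1.281 CPM), Acad8 (29.53 CPM), Hcrt (0.06741 CPM) and the regional score (1.208). The Hcrt value lies under the floor of 3 counts (0.204 CPM in ValR 9), so it does not set that library apart. ValR 12 was the outlying library for Bcat2 (16.06 CPM) and ValR 10 for Tph2 (11.56 CPM).

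The difference between ValR and LeuR differed between males and females by edgeR's test of the difference itself for 11 of the 75 genes in the text, where 0.961% of all 20076 genes were called. Many of these genes were chosen for their male difference, which is a part of this test. The male minus the female log2 fold change was 4.471 for 2610037D02Rik, 0.8436 for Atf5, 3.024 for Cmya5, -6.147 for Crym, -0.9969 for Fdps, -4.009 for Gda, -1.084 for Hmgcs1, -0.6445 for Mvk, -3.135 for Pde1a, -16.15 for Pmch and -1.333 for Sqle. Their adjusted p-values ran from 0.03138 to 0.04994 (edgeR). The values of Pmch and Crym are fitted against libraries near 0 and depend on the prior count. Male Pmch rests on LeuR 21, the library with 325 CPM of it, and female Pmch on ValR 32, with 106 CPM against at most 1.54 CPM in the other female ValR and 0.611 CPM in the female LeuR libraries. No gene passed this test without male LeuR 21.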

How the results depend on the processing

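No paired analysis was possible because no replicate number occurs in more than 1 diet group. The male count of 252 was 466 with scaling by library totals (293 higher, 173 lower), 2496 with DESeq2, 563 with limma voom, 870 with a filter of 1 CPM in 3 libraries, 1 with no filter, and 0 at an adjusted p under 0.01, in the 7 libraries alone, without the Control libraries and with the regional score as a covariate. Leaving out 1 library gave 0 to 1938. With DESeq2 size factors it was 270. In females the count of 0 was 2 with DESeq2 and 1 with the covariate, and 0 otherwise. The count of 193 between sexes was 0 at an adjusted p under 0.01, 1069 with DESeq2, 40 with limma voom, 324 with the CPM filter, 68 with the covariate, and 0 to 894 on leaving out 1 library. The regional score difference of 2.31 was 2.53 with a prior count of 0.5 and 1.30 to 3.12 on leaving out 1 library, the lowest without LeuR 21 (these leave-outs were chosen after seeing the data). All called genes kept their sign in each alternative where they were tested. The 26 called genes of the text lost their call under no filter, under an adjusted p of 0.01, in the 7 libraries alone, without the Control libraries and with the covariate. With limma voom 8 did. With the covariate Cacna1a still differed by 1.30, Rictor by 1.07, Rora by 1.46, Ulk1 by 0.41, Abca1 by 0.84 and Fnip2 by 0.55. Several others moved more, as given above. The causes were not tested.

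With the covariate the sign turned for Bckdha (-0.00722), Gabra6 (-0.711), Gfap (-0.508), Hoxb3 (-0.412), Hoxc4 (-0.349), Lhx1 (-0.613), Oxt (2.18), P2ry12 (0.191), Pmch (1.54). Leaving out 1 library turned the sign of Atf4 (-0.0327 to 0.218), Bcat1 (-0.293 to 0.0800), Bcat2 (-0.0182 to 0.108), Bckdhb (-0.204 to 0.0287), Gfap (-0.348 to 0.402), Tph2 (-3.97 to 0.857), Trem2 (-0.261 to 0.207). None of these genes was called. Depth was 12682663 counts or more in each library, and the number of libraries limits the precision.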

Other observations

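Called genes whose mean log2 CPM reached 1 differed in length of gene span. The median span was 55.31 kb for the 155 higher in ValR, 17.88 kb for the 69 lower and 24.71 kb for the genes not called. This was seen after the calls were made and was not tested.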
